A study of Homo sapiens with 6 samples.

Results

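NF-κB is a family of transcription factors that acts downstream of cytokines, microbial products and DNA damage. The expression of 10 of its genes was examined. These were the subunits NFKB1, NFKB2 and RELB, the inhibitors NFKBIA and TNFAIP3, the IκB gene NFKBIZ, and the targets CXCL1, CXCL2, CXCL8 and ICAM1. They were taken by name from a table of 47577 gene loci, of which 26793 carry a symbol. All 10 were expressed well above the minimum set for testing, which 17568 loci passed.

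In resting cells, NF-κB dimers are kept in the cytoplasm by the IκB proteins. In the canonical pathway the IKK kinases mark IκBα for destruction, which frees RELA and p50 to enter the nucleus, whereas in the non-canonical pathway the p100 protein encoded by NFKB2 is cut to p52, the partner of RELB. Many NF-κB targets are inhibitors of NF-κB itself, so the pathway is known for its feedback loops, and in ovarian carcinoma it is known for driving the secretion of chemokines.

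The data are RNA-seq profiles of OVCAR3, an established line of high-grade serous ovarian cancer cells, grown in serum-containing medium. Cells received either DMSO, the solvent, or 200 nM THZ531, a covalent inhibitor of the transcriptional kinases CDK12 and CDK13, for 6 h, with 3 biological repeats in each group. Titles, descriptions and treatment labels of the samples name THZ531, although their protocol text gives a related compound, THZ1, at that dose. All libraries come from 1 cell line, and no cytokine or other NF-κB stimulus is named in the labels. The p-values measure only the spread between these cultures, and those of the main test (limma) also draw on the spread of other loci.

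The values are normalized read counts, that is the reads counted on a gene divided by a size factor for its library, and they are not corrected for gene length. The reads counted on genes ranged from 53054048 to 70986130 among the libraries, and the members were covered by at least 211 reads in every library. All 12 epithelial and ovarian markers examined were expressed. Of 15 markers of immune, endothelial and stromal cells, 9 passed the minimum, CD3E was at 0 in every library, and their summed level was between 2394 and 2694 in DMSO and between 4022 and 4219 in THZ531, mostly from COL1A1 and COL3A1. The part of that difference in the results below was not tested. In bulk RNA, fewer cells of a type and less RNA per cell cannot be told apart.

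Because NF-κB can bind its targets next to their start sites, the promoters of the members are shown first. Sites farther from the start were not searched. RefSeq promoters on GRCh38.p14, which run from 250 bases before to 50 bases after a start, were found for 9 of the 10 members, with 13 promoters in all. No entry was found for RELB. The motif GGNNNTTCC, a common core of κB sites, was searched on both strands, and a palindromic match counts on both. The stretches of the 3 chemokine promoters from 120 bases before to 20 bases after the start are given 5′ to 3′ on the strand of the gene, since the chemokines all rose. Capitals mark GGNNNTTCC and, near the start of CXCL8, the TATA motif TATAAA.
CXCL1, chr4:73869273-73869412, plus strand: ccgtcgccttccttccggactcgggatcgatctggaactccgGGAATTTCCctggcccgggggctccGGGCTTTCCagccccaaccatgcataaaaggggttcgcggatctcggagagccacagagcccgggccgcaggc
CXCL2, chr4:74099176-74099315, minus strand: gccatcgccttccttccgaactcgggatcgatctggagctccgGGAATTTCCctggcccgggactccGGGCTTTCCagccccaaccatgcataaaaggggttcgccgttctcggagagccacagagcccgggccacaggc
CXCL8, chr4:73740449-73740588, plus strand: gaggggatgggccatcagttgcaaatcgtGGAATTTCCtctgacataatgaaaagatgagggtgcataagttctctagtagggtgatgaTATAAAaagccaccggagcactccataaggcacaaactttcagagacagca

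CXCL1 and CXCL2 each held a pair of matches with the same letters, which began 78 and 53 bases before the start in CXCL1 and 77 and 53 bases before it in CXCL2. In a global alignment, 93.6% of the columns of these 2 stretches were identical, against 46.7% for CXCL1 and CXCL8. For the other genes, the match nearest the start in 1 promoter of each is shown with its flanks (in TNFAIP3 together with a second match), to allow comparison between genes that rose, fell or were not called.
NFKB1, chr4:102501295-102501334, plus strand: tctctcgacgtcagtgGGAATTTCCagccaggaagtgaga
NFKB2, chr10:102394485-102394524, plus strand: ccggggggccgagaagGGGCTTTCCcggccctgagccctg
NFKBIA, chr14:35404807-35404846, minus strand: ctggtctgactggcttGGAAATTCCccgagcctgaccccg
NFKBIZ, chr3:101827752-101827791, plus strand: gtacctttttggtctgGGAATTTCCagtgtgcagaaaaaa
TNFAIP3, chr6:137867188-137867227, plus strand: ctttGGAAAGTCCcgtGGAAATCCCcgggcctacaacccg
ICAM1, chr19:10270918-10270957, plus strand: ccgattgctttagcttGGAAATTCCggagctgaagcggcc

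GGNNNTTCC was present in at least 1 promoter of all 9 matched members, against 28.5% of the 11512 tested genes with a promoter in the table. The members were chosen by name as NF-κB genes and targets, so this high share may follow from that choice. The CXCL1 and CXCL2 stretches are also nearly alike and do not count as separate cases. Counted by promoter, it was present in 20.1% of all 35116 RefSeq promoters and in 22.4% of those of tested genes. Of the 13 promoters of the members, 1 of NFKB1 and 1 of NFKB2 held no match. Read on either strand, the match GGAATTTCC was shared by NFKB1, NFKBIA, NFKBIZ, CXCL1, CXCL2, CXCL8 and ICAM1, and the match GGGCTTTCC by NFKB2, CXCL1 and CXCL2. TATAAA was found in the promoters of NFKBIA, NFKBIZ, CXCL8 and ICAM1, against 8.97% of the tested genes, 11.5% of all promoters and 6.76% of those of tested genes, on the minus strand in NFKBIA. A match is a description of the letters and no measure of binding. Over all tested genes with a promoter in the table, 12.8% of the 3285 genes with GGNNNTTCC were called up and 23.7% down. Of the 8227 genes without it 13.2% were up and 23.5% down. For this motif the share called was nearly the same on either side. Of the 1033 genes with TATAAA 19.2% were up and 22.2% down, against 12.5% and 23.7% of the 10479 without it. No test was run on these shares.

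Expression was compared with limma on the log2(value + 1) scale, on which the change of weakly expressed genes is understated. A gene was called where the fold change reached 1.5 and the unadjusted p did not exceed 0.05. By this rule 5 members rose, 2 fell and 3 were not called. Over all 17568 loci, 15.7% were called up and 23.9% down. By the Benjamini-Hochberg adjusted p-value at any fold change, 7 members were higher and 3 lower in THZ531, against 34.6% and 34.1% of all loci. The DMSO and THZ531 libraries did not overlap for any of the 10 members, 7 higher and 3 lower, while 36.0% and 35.7% of all loci were apart in these directions. The median log2 fold change was 0.50 for the members and -0.01 for all loci tested. The 5 genes that rose were the chemokine genes CXCL1, CXCL2 and CXCL8 together with NFKBIZ and TNFAIP3. The 2 that fell were the non-canonical subunits NFKB2 and RELB.

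**Figure D1:**
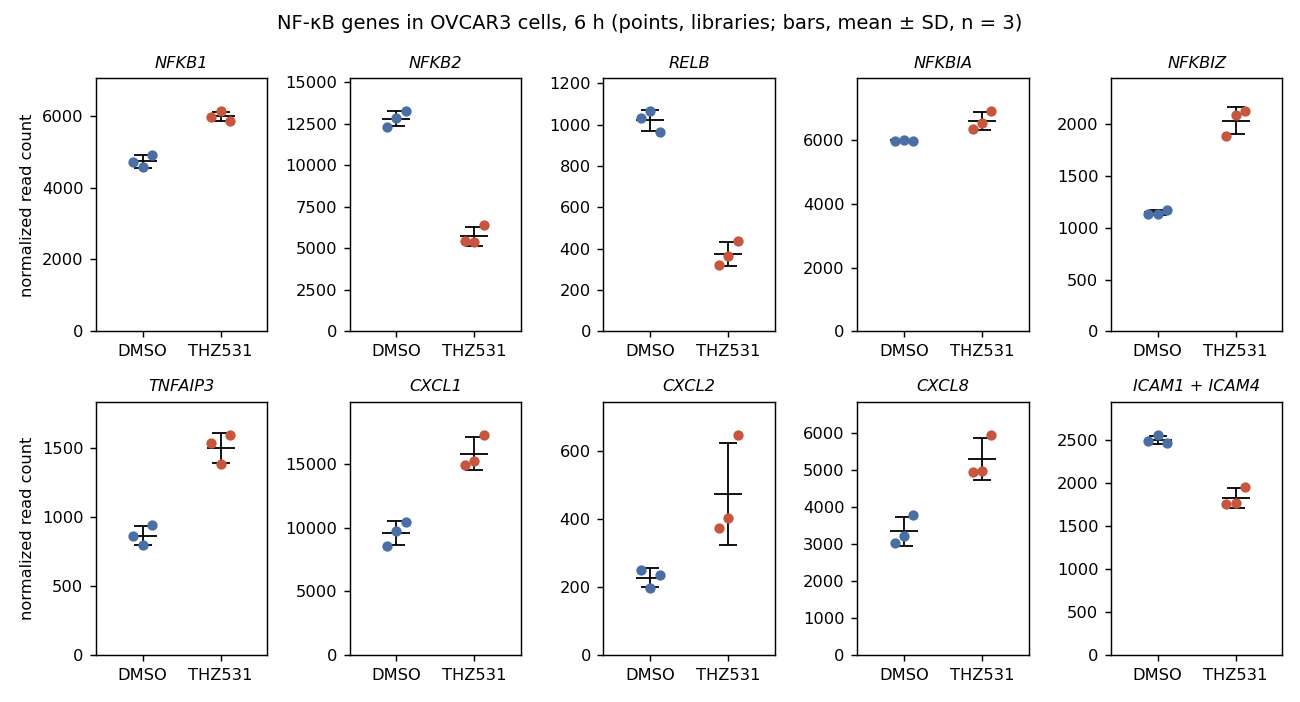
Normalized read counts (y axis, from 0) of the 10 genes in each of the 3 DMSO and 3 THZ531 libraries (points), with the mean ± SD as bars. The 2 groups are apart in every panel, with NFKB2, RELB and the joined locus of ICAM1 and ICAM4 lower in THZ531 and the other 7 genes higher.

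The subunits moved in different directions. NFKB1, which encodes p105 and its product p50, had 4707, 4577 and 4917 normalized reads in DMSO and 5974, 6128 and 5864 in THZ531. All 3 treated libraries lay above all controls, but the difference was only 1.27-fold (log2 fold change 0.34, SE 0.04, limma adjusted p = 2.4e-06) and below the fold threshold. With a transcribed span of 115944 bp in its MANE transcript, NFKB1 is the longest of the members.

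NFKB2, the p100 precursor of p52, had 12325, 12852 and 13254 reads in DMSO and 5445, 5369.8 and 6399 in THZ531. The treated libraries were well below the controls, and the level fell 2.24-fold (log2 fold change -1.16, SE 0.06, limma adjusted p = 4.6e-11). RELB, which encodes the main partner of p52 and is itself an NF-κB target, had 1033, 1064 and 965 reads in DMSO and 319.9, 366 and 438 in THZ531. Its 3 treated libraries were the 3 lowest, and it fell 2.74-fold (log2 fold change -1.45, SE 0.10, limma adjusted p = 4.3e-09), so that 8.77% of all tested loci had a log2 fold change at or below its value. Their spans differ, since NFKB2 covers 6820 bp and RELB 36729 bp, against a median of 27633 bp for 13244 tested genes with a MANE transcript.

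The inhibitors and NFKBIZ also differed. NFKBIA encodes IκBα, which holds RELA dimers in the cytoplasm and is made again after each activation. It had 5990.0, 6004 and 5989 reads in DMSO and 6362, 6525 and 6905 in THZ531. The controls were nearly identical and the treated libraries all higher, by 1.10-fold (log2 fold change 0.14, SE 0.04, limma adjusted p = 0.0071), which was below the fold threshold. The adjusted p of NFKBIA was 0.055 in limma without a trend and 0.053 in limma without THZ531 replicate 3, so that 6 members were then higher by the adjusted p-value. This direction depends on the scaling of the libraries, as does that of NFKB1: with every library scaled to the same total the log2 fold change of NFKBIA was -0.11, and with scaling to RPL34 it was -0.36 for NFKBIA and -0.15 for NFKB1.

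NFKBIZ encodes IκBζ, a nuclear member of the IκB family that is needed for the induction of a subset of inflammatory genes. It had 1138, 1135 and 1173 reads in DMSO and 1885, 2095 and 2126 in THZ531, with all treated libraries above the controls, and rose 1.77-fold (log2 fold change 0.82, SE 0.06, limma adjusted p = 6.2e-09). The NFKBIZ locus lies within the coordinates of the NXPE3 locus on the same strand, and NXPE3 also rose, from 407 ± 42.6 to 626 ± 50.1 reads (SD, n = 3, log2 fold change 0.62). Reads that both loci could claim cannot be told apart here.

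TNFAIP3 encodes A20, a ubiquitin-editing enzyme that shuts off signalling from the TNF receptor. It had 859, 797 and 941 reads in DMSO and 1534, 1381 and 1594 in THZ531, again with no overlap, and rose 1.74-fold (log2 fold change 0.80, SE 0.08, limma adjusted p = 1.3e-07). WAKMAR2, which is encoded on the opposite strand across its start, had 109 ± 39.4 reads in DMSO and 97.1 ± 2.34 in THZ531 (SD, n = 3), and was not called (log2 fold change -0.11, limma adjusted p = 0.70).

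Among the chemokines, CXCL1, CXCL2 and CXCL8 attract neutrophils through the receptors CXCR1 and CXCR2. CXCL1 had 8577, 9714 and 10465 reads in DMSO and 14925, 15269 and 17298 in THZ531, and rose 1.65-fold (log2 fold change 0.73, SE 0.06, limma adjusted p = 4.5e-08). CXCL8, which encodes interleukin 8, had 3038, 3219 and 3777 reads in DMSO and 4945, 4979 and 5947 in THZ531, and rose 1.58-fold (log2 fold change 0.66, SE 0.08, limma adjusted p = 1.1e-06). In both genes replicate 3 was the highest library within each group, and the lowest treated library was above the highest control. Without THZ531 replicate 3, the log2 fold change of CXCL8 was 0.57, below the threshold, which left 4 members called up.

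CXCL2, a close homologue of CXCL1, was much less abundant, with 251, 196 and 236 reads in DMSO and 374, 404 and 647 in THZ531. THZ531 replicate 3 was far above the others, although all treated libraries exceeded the controls. CXCL2 rose 2.03-fold, with the largest SE of the members (log2 fold change 1.02, SE 0.17, limma adjusted p = 6.7e-05), and leaving out each library in turn gave log2 values between 0.78, without THZ531 replicate 3, and 1.17. The transcripts of CXCL1 and CXCL2 share 60 of 1125 windows of 50 bases counted along CXCL1, but none of 100 bases, so few reads of 150 bases could match both.

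ICAM1 encodes an adhesion molecule that binds leukocyte integrins. The deposited locus joins ICAM1 with the neighbouring ICAM4 (chr19:10218718-10288522), so its value cannot be assigned to ICAM1 alone, and loci such as MRPL4 and S1PR2 are nested in it. It had 2482, 2553 and 2465 reads in DMSO and 1757, 1758 and 1956 in THZ531, with all treated libraries below the controls. The difference of 1.37-fold was below the fold threshold (log2 fold change -0.46, SE 0.06, limma adjusted p = 1.9e-06), whereas it passed with scaling to the same total (-0.70) or to RPL34 (-0.95). The nested S1PR2 had a log2 fold change of -0.45 and MRPL4 one of -0.05, neither of them called.

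How the libraries are scaled matters for these calls, since scaling to the same total moved all log2 fold changes by about -0.24 and scaling to RPL34, the reference of the study's qPCR, by about -0.49. The median over the members was then 0.26 and 0.01. The median over all tested loci, -0.01 with the size factors as deposited, moves down by about the same amounts. These medians, and those of the lists below, are therefore to be read against a shifted background and not against 0. NFKBIZ, TNFAIP3, CXCL1, CXCL2 and CXCL8 stayed above 0 and NFKB2, RELB and ICAM1 below 0 under both, but the size of the rise did not pass 1.5-fold for 4 of the 5 genes with the same total, and for none with RPL34. Under RPL34 scaling limma called 0 members up and 3 down, while 1078 of all 17568 loci were called up and 7524 down. With no fold threshold, 4 members were higher and 4 lower at an unadjusted p under 0.05. The share of all loci was not counted at that threshold. edgeR and DESeq2 were not run with this scaling.

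**Figure D2:**
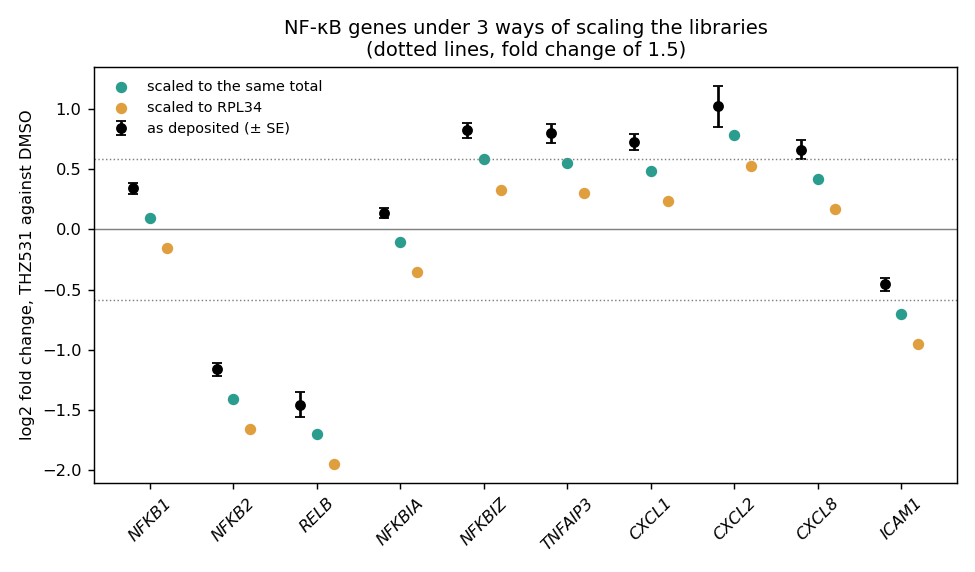
Log2 fold change of THZ531 against DMSO (y axis) for each gene with the size factors as deposited (black, ± SE from limma), with libraries scaled to the same total (green) and to RPL34 (orange). Dotted lines mark a fold change of 1.5, NFKB2 and RELB lie below the lower line under all 3, and no gene lies above the upper line with RPL34.

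Ratios of 2 genes in the same library do not depend on the scaling, and 6 of them were compared by a two-sided exact permutation test, in which 3 against 3 libraries cannot give a p below 0.1. The log2 ratio of NFKB2 to NFKB1 was 1.44 ± 0.05 in DMSO and -0.07 ± 0.17 in THZ531 (SD, n = 3), a difference of -1.50 with no overlap (exact p = 0.1, adjusted p = 0.15). The ratio of RELB to NFKB2 was lower by 0.29 on the log2 scale, also without overlap (exact p = 0.1, adjusted p = 0.15).

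Relative to NFKBIA, both NFKBIZ and TNFAIP3 were higher in THZ531. The log2 ratio of NFKBIZ to NFKBIA went from -2.38 ± 0.03 to -1.70 ± 0.06, and that of TNFAIP3 to NFKBIA from -2.79 ± 0.12 to -2.13 ± 0.10 (SD, n = 3), in both cases without overlap (exact p = 0.1, adjusted p = 0.15). The 3 chemokines could not be told apart by this measure. The ratio of CXCL8 to CXCL1 differed by -0.06 (exact p = 0.2, adjusted p = 0.24), and that of CXCL2 to CXCL1 by 0.30, with values between 0.12 and 0.45 when each library was left out (exact p = 0.3, adjusted p = 0.3), and the groups overlapped in both.

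**Figure D3:**
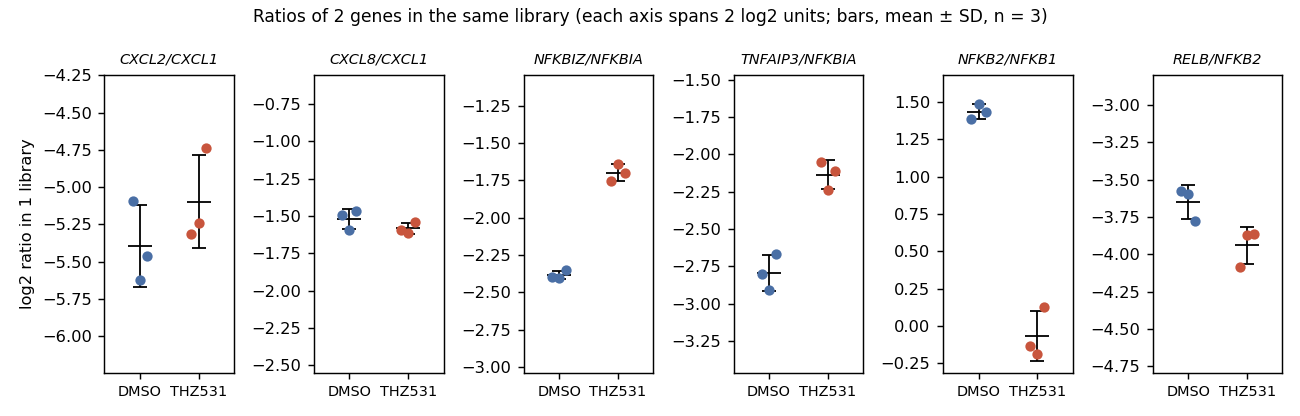
Log2 ratio of 2 genes within each library (points, with mean ± SD, n = 3) for 6 gene pairs, each y axis spanning the same number of log2 units. The groups overlap for CXCL2/CXCL1 and CXCL8/CXCL1 and are apart for the other 4 pairs, most widely for NFKB2/NFKB1.

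Per kilobase of the MANE transcript, CXCL1 had the highest level of the 9 members with a locus of their own, with 8165 ± 809.6 normalized reads per kb in DMSO and 13485 ± 1092 in THZ531 (SD, n = 3). In DMSO it was followed by NFKB2 (4249 ± 154) and NFKBIA (3845 ± 5.56), and then by CXCL8, NFKB1, RELB and NFKBIZ, while CXCL2 (204 ± 25.6) and TNFAIP3 (186 ± 15.4) came last and overlapped. In THZ531 the order was CXCL1, NFKBIA, CXCL8, NFKB2, NFKB1, NFKBIZ, CXCL2, TNFAIP3 and RELB. NFKB2 moved from the second to the fourth place and RELB from the sixth to the last (166 ± 26.4). CXCL2 overlapped both NFKBIZ above it and TNFAIP3 below it, and no other neighbours in either order overlapped.

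CXCL1, CXCL2 and CXCL8 lie in a cluster of CXC chemokine genes on chromosome 4, and their neighbours showed which other genes of the cluster were expressed. From the start of CXCL8, CXCL6 lies at 96.1 kb, CXCL1 at 129 kb, CXCL3 at 296 kb and CXCL2 at 356 kb, and all of these were called up. CXCL3, another ligand of CXCR2, had 124, 176 and 176 reads in DMSO and 359, 355 and 399 in THZ531 (log2 fold change 1.24, limma adjusted p = 2e-06). CXCL6 had 95.3, 51.0 and 52.7 reads in DMSO and 141, 132 and 129.7 in THZ531 (log2 fold change 1.07, limma adjusted p = 0.0010). PF4V1, PF4, PPBP and CXCL5, which lie between them, reached at most 8 reads in any library and were not tested.

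**Figure D4:**
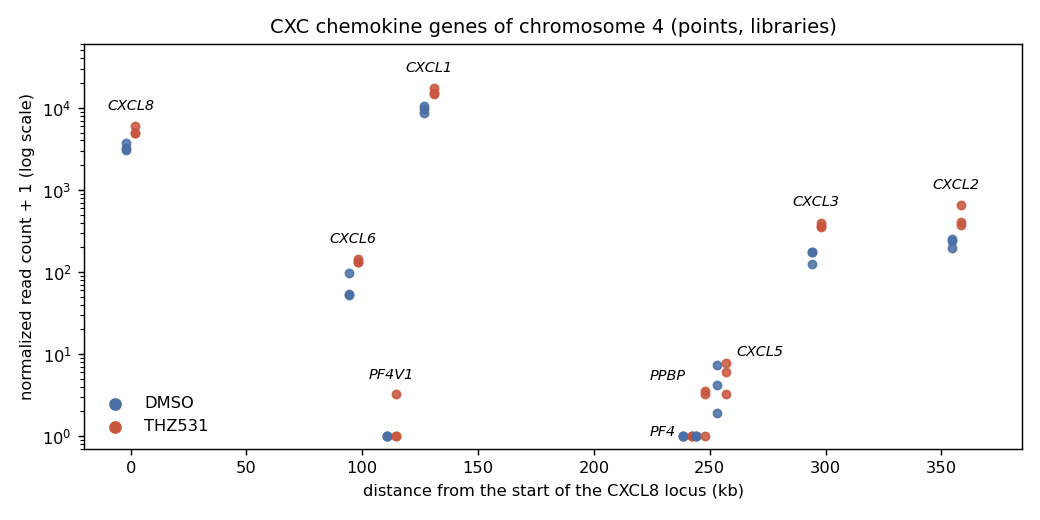
Normalized read count + 1 (log y axis) of 9 CXC chemokine genes against the distance of their locus from the start of the CXCL8 locus (x axis, kb), with a point for each DMSO and THZ531 library, the groups drawn slightly to either side of the position. The libraries of the 2 groups are apart for CXCL8, CXCL6, CXCL1, CXCL3 and CXCL2, and the 4 other genes lie near the floor.

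The receptors CXCR1, CXCR2 and ACKR1 had 0 reads in all 6 libraries, which allows up to 3 reads per library and covers counting error only. Outside the cluster, CCL20, a chemokine for cells with CCR6, rose from 87.7 ± 18.6 to 231 ± 82.0 reads (SD, n = 3, log2 fold change 1.34). CX3CL1, a membrane-bound chemokine, fell from 585 ± 96.7 to 371 ± 69.7 (SD, n = 3, log2 fold change -0.66), and CXCL11, a target of interferon, fell by 1.64 on the log2 scale at a low level. Of the 20 other chemokines and receptors listed, 9 were tested, 3 rose and 2 fell. Their median log2 fold change of 0.24 was -0.25 with RPL34 scaling.

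The AU-rich elements of chemokine mRNAs, which bind decay factors such as tristetraprolin, are a further feature. They were not a criterion, but chemokine genes were chosen by name, so their presence may follow from that choice. The nonamer TTATTTATT was found in the 3′ UTR of the MANE transcript of CXCL1, CXCL2, CXCL8 and TNFAIP3, against 9.47% of 13237 tested genes. These 4 genes were all among the 5 that rose. CXCL1 and CXCL2 are close homologues with nearly the same first site, and a part of the nonamer in the rise was not tested. The first site of each is shown with its flanks on the GENCODE v44 transcript (GRCh38), 25 bases long, with the nonamer and any that overlaps it in capitals.
CXCL1, chr4:73870676-73870700, plus strand: tcttctatTTATTTATTTATTcatt
CXCL2, chr4:74097592-74097616, minus strand: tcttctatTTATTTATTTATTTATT
CXCL8, chr4:73742666-73742690, plus strand: gtaaagtaTTATTTATTtgaatcta
TNFAIP3, chr6:137882300-137882324, plus strand: aattcactTTATTTATTttattaca

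The nonamer occurred 3 times in CXCL1, 5 times in CXCL2 and 1 time each in CXCL8 and TNFAIP3. The shorter pentamer ATTTA occurred 10 times in CXCL2, 9 in CXCL8, 6 in CXCL1 and 5 in TNFAIP3, 3 times each in NFKB1, NFKBIA and NFKBIZ, 2 in ICAM1, 1 time in NFKB2 and not at all in RELB, and it was found in 72.3% of the tested genes. Over all tested genes, 18.0% of the 1253 with the nonamer were called up and 24.1% down, and of the 11986 without it 12.2% were called up and 22.8% down. The median log2 fold change was -0.019 with the nonamer and -0.003 without it. No test was run on these shares. The genes also differ in length, and CXCL1, CXCL2, CXCL8 and NFKBIA have spans of 1916, 2156, 3148 and 3237 bp. Among 1454 tested genes with a span under 5 kb, 19.1% were called up and 16.2% down. Of the 7478 genes of 5 to 50 kb, 11.4% were called up and 23.4% down. For the 4314 genes of 50 kb or more the shares were 13.1% and 24.3%.

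Of 12 factors known to bind or cleave such mRNAs, 2 rose and none fell. ZC3H12A, the RNase Regnase-1, which cleaves inflammatory mRNAs, rose from 457 ± 1.67 to 967 ± 49.7 reads (SD, n = 3, log2 fold change 1.08), and ZFP36L2, a relative of tristetraprolin, by 0.70 on the log2 scale. ZFP36, which encodes tristetraprolin, had a log2 fold change of 0.18 and was not called. The median over this list was 0.27, and -0.22 with RPL34 scaling.

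Among the other Rel and IκB genes, 2 of 10 rose and 5 fell, with a median log2 fold change of -0.50. RELA, the main activating subunit of the canonical pathway, had 6451, 7216 and 7834 reads in DMSO and 4338, 4438 and 4499.5 in THZ531, with no overlap, and fell by 0.69 on the log2 scale (limma adjusted p = 1.9e-08). REL, the c-Rel subunit, rose from 233 ± 16.0 to 414 ± 17.7 (SD, n = 3, log2 fold change 0.83). NKRF, a repressor that binds NF-κB response elements, rose by 0.95, whereas the inhibitors NFKBIE and NFKBID fell by 0.79 and 0.82 and NFKBIL1, a gene named for its likeness to IκB, fell by 1.57. NFKBIB and BCL3 had log2 fold changes of -0.12 and -0.30, and were not called.

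Of 18 kinases and partners upstream of NF-κB, 2 rose and 5 fell (median -0.26). CHUK, which encodes IKKα, rose by 0.66, while IKBKB, which encodes IKKβ, and IKBKG, the scaffold NEMO, had log2 fold changes of -0.25 and -0.10 and were not called. RIPK2, the kinase downstream of the NOD receptors, rose by 0.84. The kinase NLK fell by 1.77, IRAK4, the first kinase of interleukin 1 signalling, fell by 1.04, and TAB1, an activator of TAK1, fell by 2.80 at a locus joined with LOC100506472. MAP3K14, which encodes NIK and starts the non-canonical pathway, had a log2 fold change of -0.31 and was not called.

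Of 30 tested adaptors, ubiquitin ligases and deubiquitinases, 4 rose and 9 fell (median -0.19). FADD, the death domain adaptor, fell from 2134 ± 2.08 to 479 ± 34.0 reads (SD, n = 3, log2 fold change -2.16), and TANK and OTUD7B, both regulators of TRAF signalling, fell by 1.62 and 1.25. The deubiquitinases OTULIN and CYLD, which remove linear ubiquitin chains, rose by 1.20 and 0.75, and the adaptor TRAF5 rose by 0.83. Of 26 tested ligands and receptors, 2 rose and 10 fell (median -0.16). TNFRSF1A, the main TNF receptor, fell from 3599 ± 187 to 1496 ± 169 reads (SD, n = 3, log2 fold change -1.27), IL17RA and TNFRSF12A fell by 0.76 and 0.74, and IL1RAP, the interleukin 1 co-receptor, and TNFRSF21 rose by 1.19 and 0.84.

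The other textbook targets were mixed, since 10 of 37 tested rose and 6 fell (median 0.15, and -0.34 with RPL34 scaling). IL6, the cytokine interleukin 6, had 430.3, 481 and 507 reads in DMSO and 1087, 1033 and 1375 in THZ531, and rose by 1.29 on the log2 scale (limma adjusted p = 1.5e-08). IER3, an early response gene, rose by 1.10 and the channel gene PANX1 by 1.26. IRF1, a transcription factor of interferon signalling, fell from 2954 ± 154 to 1116 ± 52.2 (SD, n = 3, log2 fold change -1.40), and ICOSLG, a ligand for T cells, and XIAP, an inhibitor of caspases, fell by 1.16 and 1.10. In all 7 lists together, 142 of 168 genes were tested, of which 25 rose and 37 fell. Their median log2 fold change was -0.10. Over all 17568 loci tested, 15.7% were called up and 23.9% down. The counts of each list are to be read against these shares. The 33 pathway genes named by the largest change within their list all kept their sign with scaling to the same total and to RPL34. That outcome was fixed by how they were picked. Each had passed a 1.5-fold change, and these scalings moved log2 fold changes by less, about -0.24 and -0.49.

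**Figure D5:**
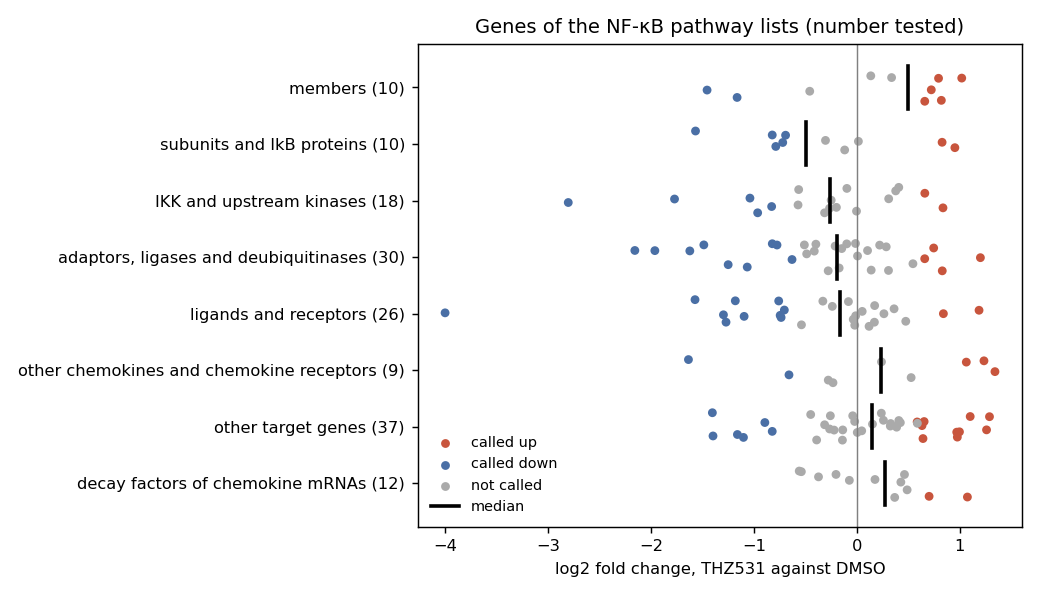
Log2 fold change of THZ531 against DMSO (x axis) for each tested gene of the member list and of 7 lists of other NF-κB pathway genes, coloured by call, with the median of each list as a black bar. The median is 0.50 for the members and -0.50 for the other subunits and IκB proteins, and every list of pathway genes except the decay factors holds genes called in both directions.

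The loci most like each member over the 6 libraries were found by the Euclidean distance of their centred log2 values. Only the 11839 tested loci with a symbol and a mean of at least 100 were searched. CXCL8 and CXCL1 were each among the 2 nearest to the other, at a distance of 0.13. The others were DCUN1D1 and TBC1D15 for NFKB1, NPIPB4 and RNF24 for NFKB2, PKD1P1 and NPIPA1 for RELB, MPDU1 and NID2 for NFKBIA, SHISA9 and NSMCE3 for NFKBIZ, TAF1A and ALDH9A1 for TNFAIP3, GRB14 for CXCL1, XPA for CXCL8, and NXN and LSM14B for ICAM1. CXCL2 had no close match among the loci searched, since USPL1 and SCML2 were at 0.43 and 0.47.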

How the data were processed

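PolyA plus RNA of 6 OVCAR3 cultures was sequenced in pairs of 150 bases. The authors mapped reads to hg38 with STAR (2.7.5a in the submitters' processing notes), counted them with featureCounts on FAST DB genes and deposited DESeq2-normalized values, a signal that is never negative. The strand setting of the counting is not given in the sources used here. Of these values 100% were whole multiples of 1 read (within 0.02 of a read), so reads were recovered.

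Loci that reached a value of 10 in 3 or more libraries were tested with limma 3.58.1 (trended variance, R 4.3.3, pseudocount 1, no covariate), and with edgeR 4.0.16 and DESeq2 1.42.0 on the recovered reads. The scripts were tested on simulated data. The fold and p thresholds were those of the paper. Exact tests used scipy 1.17.1. Members, lists and tests were chosen with earlier results of these data known. Named genes were the members, their chromosome 4 neighbours, in each list up to 3 called genes per direction with the largest change, a mean of at least 100 and groups apart, and for each member the 2 loci nearest in pattern. The pathway genes RELA, NFKBIB, BCL3, IKBKB, IKBKG, MAP3K14, CXCL11 and ZFP36, the receptors CXCR1, CXCR2 and ACKR1 and the loci overlapping a member were added for their role after values were seen. Alternatives covered pseudocounts of 0.1 and 10, no minimum or 50, scaling, the replicate block, thresholds, limma without a trend and each library left out.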

Additional observations from a re-analysis of the deposited data

How the results depend on the processing

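The 10 members kept their direction under every alternative run, except NFKBIA at -0.11 (log2) with scaling to the same total and at -0.36 with RPL34 scaling, and NFKB1 at -0.15 with RPL34 scaling. The counts called were 5 members up and 2 down, 25 pathway genes up and 37 down, and 2751 loci up and 4197 down. Scaling to the same total gave 1 member and 1647 loci up. Scaling to RPL34 gave 0 members up, 7 pathway genes up and 69 down, and 1078 loci up and 7524 down. A fold change of 2 gave 1 member up, 9 pathway genes up and 21 down, and 1353 loci up and 2689 down. The adjusted p with no fold threshold gave 50 pathway genes up and 62 down, and 6073 loci up. Leaving out each library in turn gave 4 to 5 members up, 2 down, 24 to 26 pathway genes up, 36 to 39 down, 2327 to 2743 loci up and 3775 to 4159 down. edgeR and DESeq2 on the recovered reads each called 5 members up and 2 down. In limma without a trend the adjusted p-values of the members were larger, for example 2.7e-04 for NFKB2, 0.0021 for CXCL1 and 0.014 for CXCL2. All except that of NFKBIA stayed below 0.05. Under another scaling or threshold the counts differ by construction, and for the libraries left out the cause was not tested. Samples with the same replicate number did not deviate together (correlations of 0.0017, 0.019 and -0.039), and not every library correlated best with its own number. With the replicate number as a block, 5 members were called up and 2 down, 25 pathway genes up and 37 down, and 2745 loci up and 4173 down. Values of CXCL2 rest on few reads (211 to 569 per library), and ICAM1 on a joined locus.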
